A study of Homo sapiens with 3 samples.

Results

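The histone methyltransferase DOT1L, its partner proteins and the subunits of the super elongation complex were followed as 10 genes in a pooled CRISPR knockout screen for surface HLA-B in K562 cells. The genes were chosen by name from general knowledge of these complexes, with earlier results of these data known. They were DOT1L, MLLT10, MLLT6, MLLT1, MLLT3, AFF1, AFF4, ELL, ELL2 and CDK9. Every single guide RNA (sgRNA) whose name carried one of these symbols was taken, which gave 97 of the 189398 gene-targeting sgRNAs and 10 of the 20381 genes that were seen. K562 is an established human leukaemia line that carries the BCR-ABL1 fusion and displays little MHC class I, of which HLA-B is one heavy chain.

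The comparison was of 3 groups of cells, with 1 sequencing library per group. All of them were K562 cells that expressed the nuclease Cas9, had received the genome-wide Bassik sgRNA library by lentivirus and had been selected with puromycin. The HLA-B high sorted library came from cells pulsed with interferon-γ (IFN-γ) at 1 ng/mL for the 24 h before sorting and then sorted for high HLA-B at days 18 and 25 after transduction. The high-screen control was the unsorted pool of that screen. The low-screen control was the unsorted pool of a companion screen for low MHC class I, whose cells were sorted at days 7 and 15 after 25 ng/mL of IFN-γ. The labels give neither the day on which the unsorted pools were harvested nor whether those pools were pulsed with IFN-γ. A pool of mutant cells is not a clone, so the level of an sgRNA is the summed abundance of all cells that carried it, and the extent to which it disrupted its gene was not measured.

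DOT1L places methyl groups on lysine 79 of histone H3 over transcribed genes, and no other human enzyme is known to do so. MLLT10 and MLLT6 bind it as cofactors, while MLLT1 and MLLT3 read acylated histone tails and join either DOT1L or the super elongation complex. That complex is built on the scaffolds AFF1 and AFF4, carries the elongation factors ELL and ELL2, and brings the kinase CDK9 to paused RNA polymerase II. Several of these genes are known as fusion partners of KMT2A in acute leukaemia, in which the fusion proteins recruit DOT1L and the elongation machinery, whereas K562 cells have no such fusion.

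The sorted library held 34266318 matched reads, the high-screen control 22562241 and the low-screen control 98426251. Reads of single sgRNAs are given as counted, without scaling for this difference in depth. The sort was a narrow passage for the library as a whole. Only 49.6% of the 200682 sgRNAs seen were listed in the sorted library, against 97.7% for the high-screen control and 93.4% for the low-screen control. Among sgRNAs ranked over the high-screen control, 51.5% of the gene-targeting, 52.4% of the safe-targeting, which cut sites without known function, and 65.3% of the non-targeting sgRNAs, designed to match no genomic site, were listed after the sort. Their median log2 ratios were -4.39, -4.25 and -2.20. The median gene accordingly had a median log2 ratio of -4.30 in sorted cells over the high-screen control and -4.87 over the low-screen control. Throughout, a log2 ratio compares the reads of 1 sgRNA in 2 libraries after the deeper library was scaled to the shallower, with a pseudocount of 1 and at least 10 reads in the control. An sgRNA that was not listed in the sort had a ratio set by its control count and the pseudocount, so its value is a limit and not a measured decrease. A count of 0 still allows about 3 reads, which is 0.0875 reads per 1000000 matched reads (CPM) for the sorted library, 0.133 CPM for the high-screen control and 0.0305 CPM for the low-screen control.

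Genes were scored by redundant siRNA activity (RSA), which ranks all sgRNAs by ratio and takes the smallest hypergeometric p that the ranks of a gene's sgRNAs give. A call in either direction required an RSA p under 0.001, and 4 or more sgRNAs of the gene at or beyond that rank. Because the smallest of several p values is too small as a p, the exact null distribution of the score was also computed, and the resulting p was adjusted over all genes by the Benjamini-Hochberg procedure. Both are one-sided. With 1 library per group they compare these libraries and not the conditions, and they measure only how well the sgRNAs of a gene moved together. Calls are relative to other sgRNAs, and 34 of the 109 genes called enriched in sorted cells over the high-screen control had a median ratio below 0.

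None of the 10 genes was called in either direction in sorted cells over the high-screen control. Across all 20041 genes tested, 0.544% were called enriched and 0.419% depleted, and read against these shares a count of 0 of 10 says nothing particular about the members. The lowest exact adjusted p among the 10 genes was 0.881 for enrichment and 0.959 for depletion, where 0.0549% of all genes were below 0.05 for enrichment and 0.00499% for depletion. At an unadjusted exact p below 0.05, DOT1L and MLLT10 passed for enrichment and no member for depletion, where 5.17% of all genes passed for enrichment and 5.7% for depletion. Over the low-screen control, which shares the sorted library with the first comparison, again 0 of 10 were called, against 0.645% enriched and 0.56% depleted among 20009 genes. There the lowest exact adjusted p was 0.773 for enrichment, where 0.035% of all genes were below 0.05, and 0.941 for depletion, where no gene was. DOT1L alone passed at an unadjusted exact p below 0.05, for enrichment, against 5.45% of all genes for enrichment and 5.62% for depletion.

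Single sgRNAs of the 10 genes spread about as widely as those of other genes. Of their 91 ranked sgRNAs, 12 (13.2%) had a log2 ratio above 1 in sorted cells over the high-screen control, against 12.6% of all gene-targeting sgRNAs. A further 61 (67.0%) lay below -1, against 70.8%, and 50 (54.9%) were listed in the sort, against 51.5%. Over the low-screen control 13 of 90 (14.4%) lay above 1, against 13.2%. The median of the 10 gene medians was -4.05 over the high-screen control, where the median gene had -4.30, and -4.83 over the low-screen control, where it had -4.87. For scale, the menin gene MEN1 had a median of 5.33, EZH2 of Polycomb repressive complex 2 had 5.27 and PSIP1, which encodes the menin partner LEDGF, had 3.08 over the high-screen control. PSIP1 itself was not called there, because 3 sgRNAs lay at or beyond the best rank, although its RSA p was 5.4e-07 and its exact adjusted p 0.00786. Of its 8 ranked sgRNAs 6 had a log2 ratio above 1. Over the low-screen control it was called, with 7 sgRNAs at or beyond the best rank. The requirement of 4 sgRNAs, as counted here at the best rank, can thus leave out a gene that the exact adjusted p retains. Among the 10 members neither rule made a call.

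**Figure D1:**
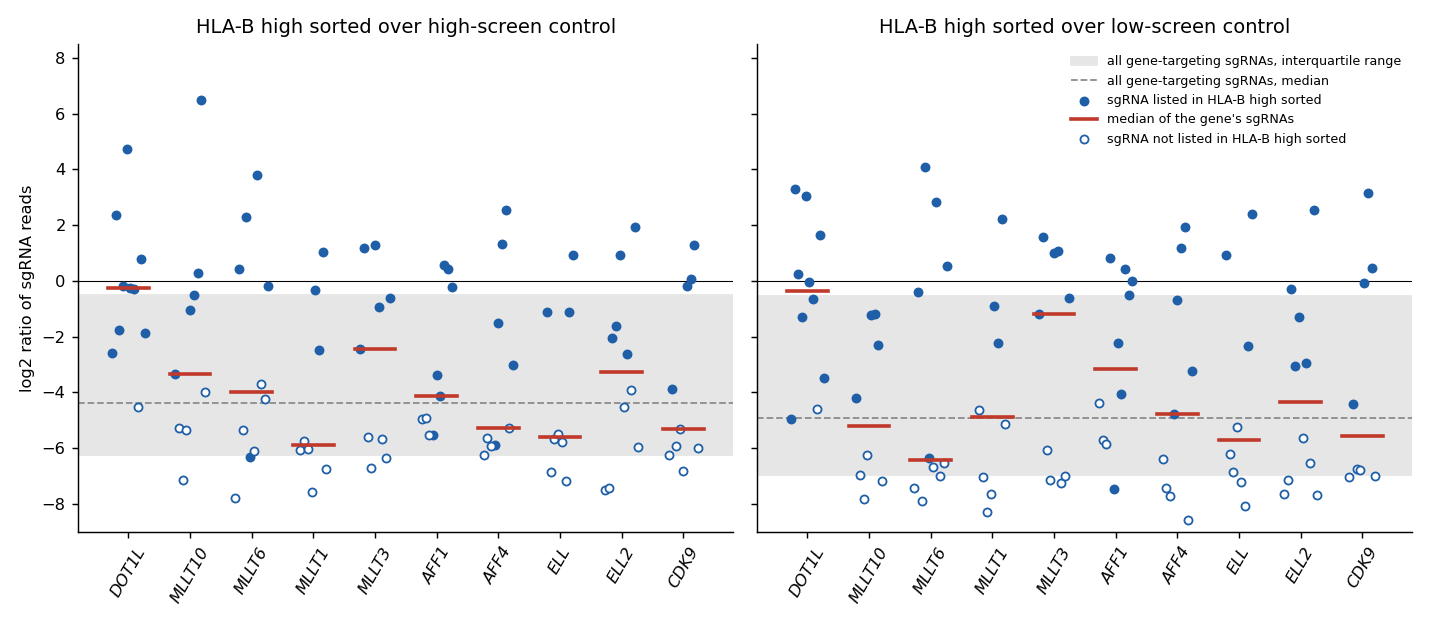
Log2 ratio of each sgRNA (vertical axis) by gene (horizontal axis) in HLA-B high sorted cells over the high-screen control (left) and over the low-screen control (right); filled points were listed in the sorted library, open points were not, red bars are gene medians, and the grey band and dashed line are the interquartile range and median of all gene-targeting sgRNAs. DOT1L has the highest median of the 10 genes in both panels, at -0.27 and -0.35, and every gene has sgRNAs on both sides of the dashed line.

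DOT1L stood highest of the 10 genes, with a median log2 ratio of -0.27 in sorted cells over the high-screen control (interquartile range -1.85 to 0.55, 10 sgRNAs), which was higher than the medians of 96.1% of genes. The enzyme's gene lies on chromosome 19 (GRCh37, 2163932 to 2232577, plus strand). Its sgRNA 5 had 4554 reads in the sorted library, against 113 in the high-screen and 1563 in the low-screen control. Its sgRNA 2 had 1257 reads in the sorted library, against 159 in the high-screen and 365 in the low-screen control. These were the only DOT1L sgRNAs above a log2 ratio of 1 over the high-screen control, at 4.72 and 2.37.

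Another 4 DOT1L sgRNAs lay between -1 and 1 over the high-screen control. The sgRNAs 4, 6, 7 and 9 had 146, 247, 102 and 167 reads in the sorted library, against 109, 192, 83 and 63 in the high-screen control. Their log2 ratios over the high-screen control were -0.18, -0.24, -0.30 and 0.79, and over the low-screen control -1.28, -0.03, -0.66 and 1.66. With sgRNAs 5 and 2, at 3.06 and 3.30, sgRNA 9 was thus among 3 DOT1L sgRNAs above 1 over the low-screen control. The sgRNAs 1, 3 and 10 were below -1 over the high-screen control. They had 23, 82 and 10 reads in the sorted library, against 95, 183 and 27 in the high-screen control. In the low-screen control they had 2137, 199 and 348 reads, which gave log2 ratios of -4.96, 0.24 and -3.47. The sgRNA 3 was thus lower only over the high-screen control. The sgRNA 8 was not listed in the sort and had 22 reads in the high-screen control, where it was the least abundant sgRNA of the gene.

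DOT1L differed from the median gene in how many of its sgRNAs passed through the sort, a count that 1 sorted library cannot set against a spread between sorts. Of its 10 sgRNAs 9 were listed in the sorted library. Among the 7463 genes with 10 ranked sgRNAs the median number was 5, and 162 genes (2.17%) had at least 9. How often an sgRNA was listed after the sort moved with its reads in the high-screen control. Of all ranked gene-targeting sgRNAs 29.0% were listed at 10 to 29 control reads, 42.6% at 30 to 99, 62.5% at 100 to 299 and 84.2% at 300 or more. The DOT1L sgRNAs numbered 2, 3 and 5 in the lower 3 of these ranges and were listed in 1, 3 and 5 cases. For the 10 genes together 5 of 12, 13 of 37, 31 of 41 and 1 of 1 sgRNAs were listed in the 4 ranges from low to high.

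The RSA score of DOT1L rested on all 10 sgRNAs, including sgRNA 8, which was not listed in the sort and whose ratio is a limit set by its 22 control reads. Its RSA p was 0.00143 over the high-screen control, just above the threshold, and all 10 sgRNAs lay at or beyond the best rank, since 51.9% of all ranked sgRNAs had a ratio at least as high as its lowest, -4.52. The exact p was 0.0104 before adjustment and 0.881 after adjustment over all genes. Over the low-screen control the median was -0.35 (interquartile range -2.93 to 1.30), higher than in 95.7% of genes, with an RSA p of 0.00115 and an exact adjusted p of 0.773. Small changes in processing took DOT1L across the call threshold in 4 of 10 alternative settings over the high-screen control and in 2 of 10 over the low-screen control, and its exact adjusted p stayed between 0.413 and 0.929 in all 20 of them. The settings that did so called 87 to 191 of all genes enriched over the high-screen control, against 109 in the main setting. Over the low-screen control they called 130 and 203, against 129. The 2 alternative call rules are not among these settings. They were 4 sgRNAs past a log2 ratio of 1 and an exact adjusted p below 0.05, and neither called DOT1L.

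Summed over its sgRNAs, DOT1L had 192 CPM in the sorted library, against 46.4 CPM in the high-screen pool and 71.6 CPM in the low-screen pool. The sum was 4.15 times that of the high-screen control and 2.69 times that of the low-screen control. It turned on sgRNA 5, which held 69.1% of the gene's sorted reads, and without that sgRNA the sorted sum was 59.4 CPM, against 41.4 CPM for the high-screen control (1.44-fold) and 55.7 CPM for the low-screen control (1.07-fold).

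**Figure D2:**
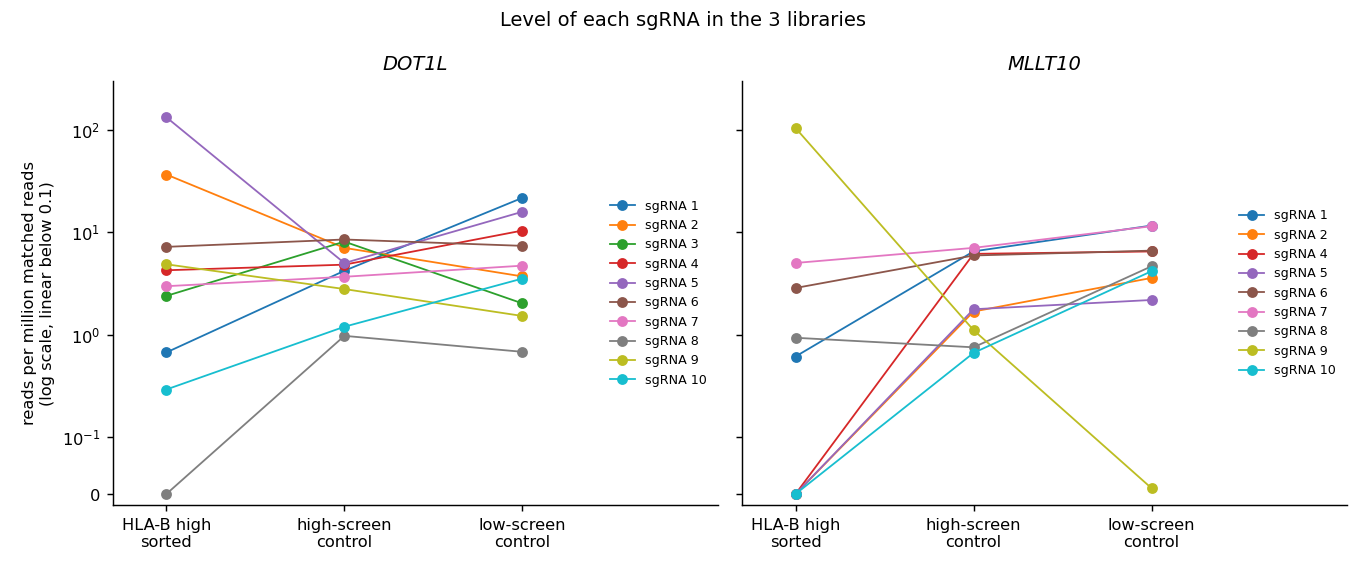
Level of each sgRNA of DOT1L (left) and MLLT10 (right) in CPM (log axis, linear below 0.1) in the HLA-B high sorted library, the high-screen control and the low-screen control, with 1 line per sgRNA. In DOT1L sgRNAs 5 and 2 stand above the rest in the sorted library at 133 and 36.7 CPM, while in MLLT10 sgRNA 9 does so alone at 104 CPM.

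MLLT10 and MLLT6, the cofactors of DOT1L, each had sums in the sort that came from few sgRNAs. The MLLT10 sum was 114 CPM in the sorted library, against 31.6 CPM in the high-screen and 50.9 CPM in the low-screen control. The MLLT6 sum was 119.7 CPM in the sorted library, against 55.7 CPM in the high-screen and 51.6 CPM in the low-screen control. Neither median followed its sum. MLLT10 (chromosome 10, 21813575 to 22032559, plus strand) had a median log2 ratio of -3.32 over the high-screen control and -5.21 over the low-screen control. Its sgRNA 9 had 3575 reads in the sorted library, against 25 in the high-screen and 1 in the low-screen control, and made up 91.7% of the gene's sorted reads. With 1 read in the low-screen control it was not ranked in that comparison. This sgRNA alone set the RSA p of 0.00258 (exact adjusted p 0.881), and with fewer than 4 sgRNAs at the best rank the gene could not be called. Without its highest sgRNA the RSA p was 0.0756. The next sgRNA, number 7, had 172 reads in the sorted library, against 159 in the high-screen and 1129 in the low-screen control. Of the 9 MLLT10 sgRNAs 4 were not listed in the sort.

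MLLT6 (chromosome 17, 36861526 to 36886048, plus strand) had medians of -3.97 and -6.43 over the high-screen and low-screen controls. The same 2 of its 10 sgRNAs were above a log2 ratio of 1 in both comparisons. The sgRNA 4 had 2552 reads in the sorted library, against 344 in the high-screen and 430 in the low-screen control. The sgRNA 7 had 1022 reads in the sorted library, against 47 in the high-screen and 413 in the low-screen control. The remaining sgRNAs did not follow them, as 5 of the 10 were not listed in the sort, and the RSA p for enrichment was 0.0858 and 0.0567 over the high-screen and low-screen controls.

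MLLT1 and MLLT3, the paired readers of acylated histones, had different medians, but the interquartile ranges of their sgRNAs overlapped in both sorted comparisons. MLLT1 (chromosome 19, 6210392 to 6279986, minus strand) had the lowest median of the 10 genes over the high-screen control, -5.90, higher than 10.8% of genes, and a median of -4.88 over the low-screen control. Both MLLT1 medians fell between sgRNAs that were not listed in the sort, so they are limits. Over the high-screen control the medians of MLLT6, AFF4, ELL and CDK9 also rested on sgRNAs that were not listed. The same holds for ELL over the low-screen control, and these medians too are limits. Only 3 of its 8 ranked sgRNAs were listed in the sort, of which sgRNA 8 was the highest with 604 reads in the sorted library, against 195 in the high-screen and 366 in the low-screen control. Its RSA p for depletion was 0.0863 (exact adjusted p 0.959). Its sgRNAs 6 and 9 had only 6 and 1 reads in the high-screen control and were left out of the ranking.

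MLLT3 (chromosome 9, 20341667 to 20622498, minus strand) had the second highest median in both comparisons, -2.42 over the high-screen control and -1.19 over the low-screen control, higher than 76.0% and 90.0% of genes. Its 9 ranked sgRNAs split into 5 that were listed in the sort and 4 that were not. The highest, sgRNAs 2 and 6, had 852 and 658 reads in the sorted library, against 244 and 176 in the high-screen and 823 and 946 in the low-screen control. Its summed level was 55.8 CPM both in the sorted library and in the high-screen control, against 44.9 CPM in the low-screen control, and its RSA p for enrichment was 0.193 and 0.101 over the high-screen and low-screen controls.

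The scaffolds of the super elongation complex, AFF1 and AFF4, had medians within the interquartile range of all gene medians, which was -5.32 to -2.52 over the high-screen control and -6.05 to -2.82 over the low-screen control. AFF1 (chromosome 4, 87856154 to 88062191, plus strand) had -4.13 over the high-screen control and -3.14 over the low-screen control. None of its ranked sgRNAs exceeded a log2 ratio of 1 in either comparison, and the highest ranked over the high-screen control was sgRNA 8 with 387 reads in the sorted library, against 169 in the high-screen and 822 in the low-screen control. Of its 9 ranked sgRNAs 6 were listed in the sort, but sgRNAs 5 and 7 had only 1 read each there. Its sgRNA 4 had 90 reads in the sorted library (2.63 CPM), against 5 in the high-screen control (0.222 CPM) and 144 in the low-screen control (1.46 CPM), and with fewer than 10 reads in the high-screen control it was not ranked there. Its RSA p for enrichment was 0.0172 and 0.0380 over the high-screen and low-screen controls, with exact adjusted p of 0.944 and 0.961.

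AFF4 (chromosome 5, 132211087 to 132299326, minus strand) had medians of -5.29 and -4.77 over the high-screen and low-screen controls. Its sgRNAs 7 and 6 had 523 and 267 reads in the sorted library, against 58 and 69 in the high-screen and 386 and 336 in the low-screen control. The remaining 7 ranked sgRNAs were all below -1 over the high-screen control. Both scaffold genes had lower summed levels in the sort than in either pool, with 28.2 CPM for AFF1 in the sorted library, against 33.9 and 42.2 CPM in the high-screen and low-screen controls, and 25.8 CPM for AFF4, against 30.6 and 42.0 CPM. The median gene was also lower in the sort, with 30.03 CPM in the sorted library, against 44.9 and 45.1 CPM in the high-screen and low-screen controls.

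ELL and ELL2, elongation factors that raise the rate of RNA polymerase II, and the kinase CDK9 showed the same mixture. ELL (chromosome 19, 18553473 to 18632926, minus strand) had medians of -5.58 and -5.72 over the high-screen and low-screen controls, and 3 of its 8 ranked sgRNAs were listed in the sort. Its highest, sgRNA 10, had 533 reads in the sorted library, against 182 in the high-screen and 290 in the low-screen control. ELL2 (chromosome 5, 95220802 to 95297555, minus strand) had medians of -3.25 and -4.35, and 5 of its 10 sgRNAs were listed. Its highest, sgRNA 9, had 716 reads in the sorted library, against 123 in the high-screen and 346 in the low-screen control. The lowest RSA p in either direction over the high-screen control was 0.133 for ELL and 0.123 for ELL2, both for depletion.

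CDK9, the catalytic subunit of the positive elongation factor P-TEFb (chromosome 9, 130547958 to 130553071, plus strand), had medians of -5.32 and -5.57 over the high-screen and low-screen controls. Of its 9 sgRNAs 4 were listed in the sort. The highest, sgRNA 8, had 424 reads in the sorted library, against 113 in the high-screen and 873 in the low-screen control, followed by sgRNA 7 with 232, against 145 and 73. Its RSA p was 0.243 for enrichment and 0.256 for depletion over the high-screen control.

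**Figure D3:**
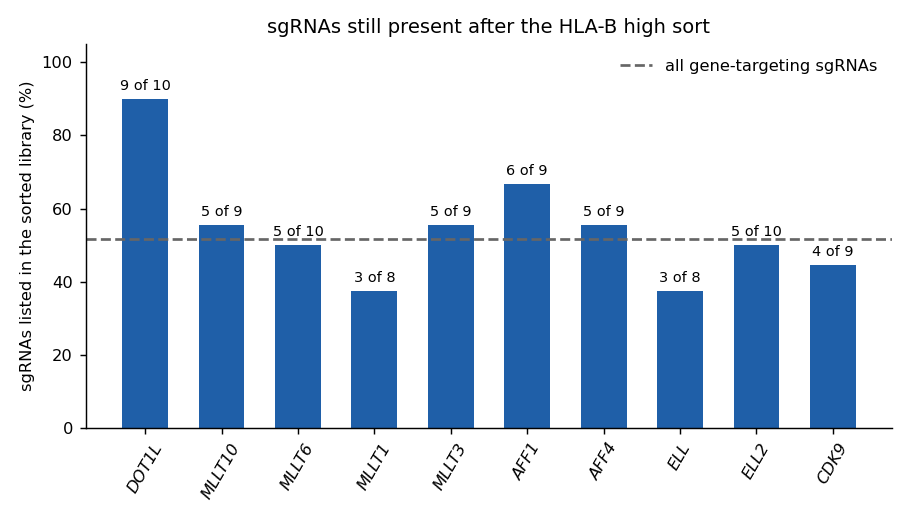
Share of the ranked sgRNAs of each gene (vertical axis, percent) that were listed in the HLA-B high sorted library, with the counts above the bars and the share over all gene-targeting sgRNAs (51.5%) as a dashed line. DOT1L reaches 9 of 10, while the other 9 genes lie between 3 of 8 and 6 of 9.

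The unsorted pools were compared with each other to see how the 10 genes stood without the HLA-B sort. Each pool was a single library of its own screen, so the effects of screen, harvest day, IFN-γ and library cannot be told apart, and the pool of sgRNAs before infection was not analysed here. No member was called in either direction, where 0.832% of 20080 genes were called higher in the high-screen control and 0.762% lower. The lowest exact adjusted p was 0.856 for the higher and 0.656 for the lower direction. Only ELL passed at an unadjusted exact p below 0.05, in the lower direction, against 6.29% of all genes there and 6.53% in the higher direction.

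The medians of the 10 genes in the high-screen control over the low-screen control ran from -0.70 for MLLT10 to 1.12 for ELL, where the median gene had -0.02. DOT1L had -0.08, MLLT6 -0.40, MLLT1 0.38 and MLLT3 0.11. AFF1 had 0.03, AFF4 -0.17, ELL2 -0.42 and CDK9 -0.19. Of the 93 ranked sgRNAs 19 (20.4%) lay above 1 and 22 (23.7%) below -1 between the pools, against 22.4% and 23.5% of all gene-targeting sgRNAs. For DOT1L the pools differed most at sgRNA 1, with 95 reads in the high-screen control, against 2137 in the low-screen control, a log2 ratio of -2.35.

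The ELL score came from 1 sgRNA. Its sgRNA 8 had 0 reads in the high-screen control, against 766 in the low-screen control, and alone set the RSA p of 0.00161 for the lower direction (exact p 0.0108). Its sgRNA 5 was the reverse, with 44 reads in the high-screen control, against 0 in the low-screen control. The 5 ELL sgRNAs above a log2 ratio of 1 gave the gene the highest median of the group, higher than 96.8% of genes, with an RSA p of 0.0198 in the higher direction (exact adjusted p 0.856). Similarly one-sided counts were found at CDK9 sgRNA 3, with 60 reads in the high-screen control, against 0 in the low-screen control, and at MLLT10 sgRNA 9, with 25 against 1. These sgRNAs thus had very different levels in the pools against which the sort was set.

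**Figure D4:**
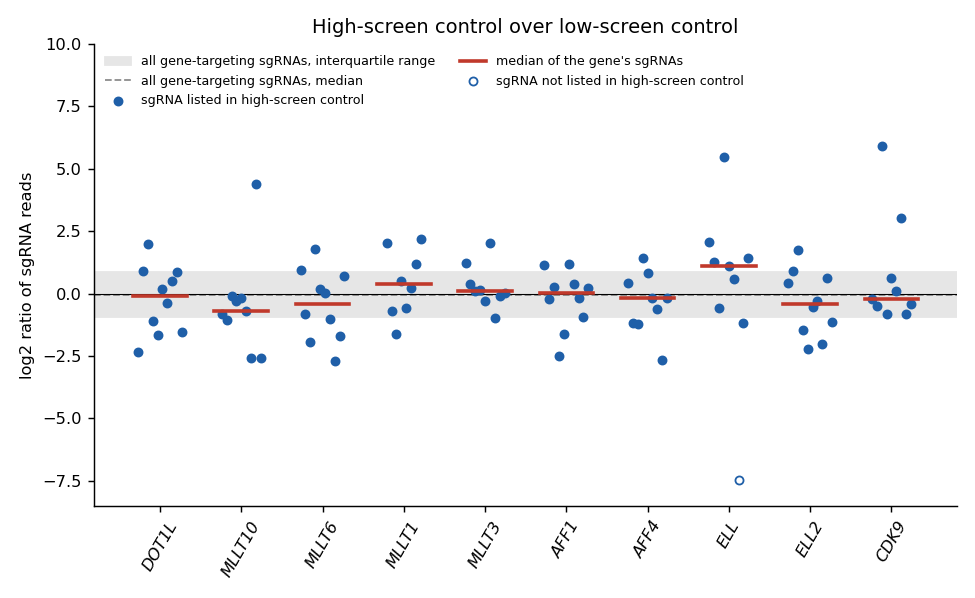
Log2 ratio of each sgRNA (vertical axis) by gene (horizontal axis) in the high-screen control over the low-screen control; filled points were listed in the high-screen control, the open point was not, red bars are gene medians, and the grey band and dashed line are the interquartile range and median of all gene-targeting sgRNAs. Gene medians lie between -0.70 and 1.12, and the lowest point is ELL sgRNA 8 at -7.46.

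The 10 genes were also set beside 39 further genes of transcription elongation in 6 lists. All 39 were tested and none was called in sorted cells over the high-screen control, in either direction. Their median was -4.64, and single genes ran from -6.19 for SUPT5H, the large subunit of the pausing factor DSIF, to -0.96 for CCNT2, a cyclin partner of CDK9. DOT1L with -0.27 lay above all 39 in this comparison, whereas over the low-screen control AFF3, a relative of the scaffold genes, had a median of 0.09, against -0.35 for DOT1L. SUPT5H, CCNT2 and AFF3 were named after their values were seen. The list medians ran from -5.38 for the PAF1 complex and SPT6, which travel with the polymerase, to -3.95 for the other subunits of the super and little elongation complexes. The cyclin-dependent kinases that act on RNA polymerase II beside CDK9 held the only genes with an unadjusted exact p below 0.05, both for depletion, CDK7 at 0.0392 and MNAT1, the assembly factor of the CDK7 complex, at 0.0333. These 2 of 39 were near the background, since 5.7% of all genes passed for depletion. Of their 8 (CDK7) and 9 (MNAT1) ranked sgRNAs only 1 each was listed in the sort, so the other ratios are limits.

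Over the low-screen control 1 of the 39 genes was called, MNAT1 for depletion (RSA p 4.3e-05, exact adjusted p 0.362), and none for enrichment, where 0.56% of all genes were called for depletion and 0.645% for enrichment. ZC3H8, a subunit of the little elongation complex, had an unadjusted exact p of 0.0298 for depletion there. Of the ranked sgRNAs 1 of 8 was listed in the sort for MNAT1 and 0 of 9 for ZC3H8. The ratios of the others are limits and not measured decreases. Between the pools ZC3H8 was called lower in the high-screen control than in the low-screen control (RSA p 9.3e-05, exact adjusted p 0.501), with a median of -2.01, where 0.762% of all genes were called lower. Of its 9 sgRNAs 4 were not listed in the high-screen control, so their ratios are limits too. An unadjusted exact p below 0.05 was found for 5 genes in the higher direction, namely CCNT1, CDC73, CDK7, CDK12 and CCNK, and for 6 in the lower, namely LARP7, ZC3H8, NELFB, NELFCD, WDR61 and UBE2B. Of all genes, 6.53% passed in the higher and 6.29% in the lower direction.

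**Figure D5:**
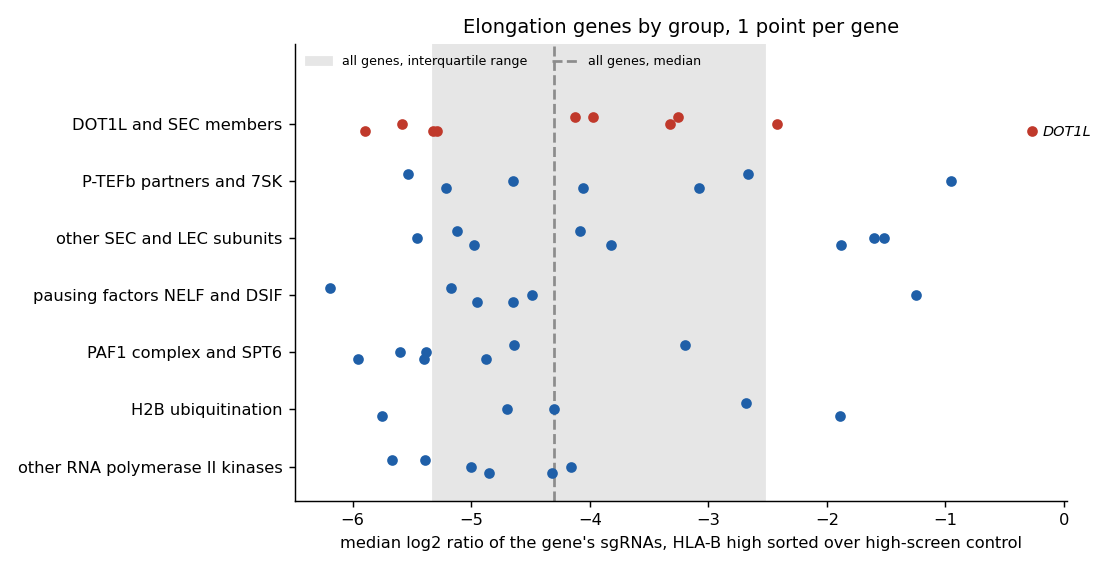
Median log2 ratio of each gene's sgRNAs in HLA-B high sorted cells over the high-screen control (horizontal axis), with 1 point per gene, by group of elongation genes (vertical axis); SEC and LEC are the super and little elongation complexes, and the grey band and dashed line are the interquartile range and median of all genes. DOT1L at -0.27 is the rightmost point, and the other 9 members (-5.90 to -2.42) lie within the span of the 6 lists.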

How the data were processed

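Genomic DNA of 3 pools of K562 cells was sequenced across the sgRNA insert. The authors deposited raw read counts per sgRNA: per the study's methods, reads were trimmed with fastx clipper or cutadapt, mapped with Bowtie2 to the sgRNA sequences, and multi-aligning reads were removed. Tool versions are not given in the sources used here. Reads matched to no sgRNA (21.9% for the sorted library, 20.6% for the high-screen control and 12.1% for the low-screen control) were left out. An sgRNA not listed in a library was given 0 reads. Reads came from PCR with no molecular identifiers, so limits cover counting error only.

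Ratios, RSA scores and exact p values were computed with scipy 1.17.1, pandas 2.3.3 and numpy 2.4.6 under Python 3.11.15, and tested on simulated data. The simulated spread was fixed in advance and not fitted to the share of sgRNAs lost in the sort. How the scoring behaves at that loss was therefore not tested. Genes needed 2 ranked sgRNAs, and tied ratios took the worst rank. The minimum of 10 reads applied to the control, or to either pool when the pools were compared. Positions are from GENCODE 44 on GRCh37, 9 genes matched by identifier and MLLT6 by symbol. The members, the 6 lists and the tests were chosen with earlier results of these data known. Named genes were all members, EZH2, MEN1 and PSIP1 for scale, and listed elongation genes called or with an unadjusted exact p below 0.05. sgRNA sequences and cut sites were not used here. Counts of sgRNAs carry no expression, so the identity of the line was not checked. For the low-screen control the labels disagree on the antibody of its screen.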

Additional observations from a re-analysis of the deposited data

How the results depend on the processing

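No paired analysis was possible because each group held 1 library. The count of members called stayed at 0 in 66 of the 72 combinations of comparison, direction and alternative setting. In the remaining 6 it was 1, and the gene was DOT1L, called enriched. Over the high-screen control these settings were a pseudocount of 5 (RSA p 0.000464), a minimum of 30 control reads (0.000959), each gene's highest sgRNA left out (0.000814) and, chosen after seeing the data, each gene's lowest sgRNA left out (0.000658). Over the low-screen control they were a pseudocount of 0.5 (0.000711) and the highest sgRNA left out (0.000750). Over the high-screen control these settings called 103 of 20041, 87 of 19897, 191 of 19802 and 136 of 19802 genes enriched, in that order. The main setting called 109 of 20041 there. Over the low-screen control they called 130 of 20009 and 203 of 19754, against 129 of 20009 in the main setting. Ranking within 50 bins of sgRNAs of like count, also chosen after seeing the data, gave DOT1L an RSA p of 0.00208 over the high-screen control and 0.00943 over the low-screen control. The lowest exact adjusted p of any member under any of these settings was 0.413. Without a minimum count, MLLT10 sgRNA 9, with 1 read in the low-screen control, gave its gene an RSA p of 9.6e-05, and no call because 1 sgRNA set it.

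Of 300 recomputed gene values, which were medians, means over sgRNAs or sums of reads, 15 had the opposite sign to the main median. With summed reads in place of the median, sorted cells over the high-screen control gave 2.05 for DOT1L, 1.85 for MLLT10 and 1.10 for MLLT6, and over the low-screen control 1.43 for DOT1L, 1.16 for MLLT10, 1.21 for MLLT6 and 0.31 for MLLT3. A sum weights the most abundant sgRNA, and 1 sgRNA held 69.1%, 91.7% and 62.2% of the sorted reads of DOT1L, MLLT10 and MLLT6. For the high-screen control over the low-screen control, where main medians lie near 0, the sums gave 0.11 for MLLT6, -0.32 for AFF1 and 0.043 for CDK9. Means over sgRNAs gave -0.22 for AFF1 and 0.78 for CDK9. Leaving out the highest sgRNA gave -0.16 for AFF1, and leaving out the lowest gave 0.21 for DOT1L and 0.016 for MLLT6. Among all genes, leaving out the most extreme sgRNA raised the calls over the high-screen control to 191 enriched, against 109, and 166 depleted, against 84. Over the low-screen control it gave 203 enriched, against 129, and 200 depleted, against 112, and between the pools 251 lower, against 153. The exact adjusted p called 11 enriched and 1 depleted over the high-screen control, 7 and 0 over the low-screen control, and 0 and 0 between the pools. Requiring 4 sgRNAs past a log2 ratio of 1 gave 142 depleted, against 84, over the high-screen control. The causes of these changes were not tested beyond what each setting does by construction.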
